A study of Mus musculus with 2 samples.

Results

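The suppressors of cytokine signalling (SOCS) form a family of 8 genes in the mouse, Cish and Socs1 to Socs7, and all 8 were found by symbol among the 31053 genes of the deposited matrices. They were followed in single cells of dorsal skin from 2 libraries, cell type by cell type, with the weight on Socs2 and Cish in dermal papilla cells and on Socs3 in keratinocytes. One library came from Chrna5-/- mice, which lack the alpha 5 subunit of the nicotinic acetylcholine receptor, and the other from WT mice. Per the labels, both libraries came from C57BL/6 dorsal skin given the vaseline base of a cream, in female mice aged 6 to 8 weeks, with sampling on day 7. The knockout line was backcrossed to C57BL/6N, while the protocol for making the cell suspension names C57BL/6J and speaks of imiquimod-treated skin, which the sample labels and the series title do not. Skin was digested with collagenase at 37 degrees Celsius and sorted for live cells by exclusion of SytoxBlue. How many mice each library pooled, and which part of Chrna5 the line lacks, is not stated in the sources used here. With 1 library per genotype there was no replicate check and no test, so every difference below is between these 2 libraries and every interval covers counting error only.

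SOCS proteins are feedback inhibitors of the JAK-STAT pathway. A cytokine or hormone binds its receptor, Janus kinases phosphorylate the receptor and STAT proteins, the STATs switch on genes that include several SOCS genes, and the SOCS proteins then block the receptor or the kinases and recruit a ubiquitin ligase through their SOCS box. Cish and Socs2 are classically induced by STAT5 downstream of growth hormone and prolactin receptors, Socs3 by STAT3 downstream of receptors that share the gp130 subunit, and Socs1 by interferons. The dermal papilla is the cluster of mesenchymal cells at the base of the hair follicle that instructs the hair-forming keratinocytes.

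After filtering, 8841 Chrna5-/- cells and 9666 WT cells were kept, with 114717152 and 127582029 unique molecular identifiers (UMIs, each standing for 1 captured RNA molecule) and medians of 12310 and 12538.5 UMIs per cell. Chrna5 itself gave 2 UMIs in Chrna5-/- cells and 11 UMIs in WT cells, too few to check the genotype, and 3' tags outside the deletion would check nothing. The libraries shared 34 barcodes, in 31 kept Chrna5-/- cells and 28 kept WT cells. Cluster 11 carried 11 of 12 dermal papilla markers and was led by Wif1, Hhip, Crabp1, Rspo3 and Corin among others, and it is called dermal papilla-like here. It held 507 Chrna5-/- cells and 586 WT cells. Keratinocyte-like cells, called keratinocytes below, filled 13 clusters with 7240 Chrna5-/- cells and 7806 WT cells. Cluster 10 among them, with 86 Chrna5-/- cells and 621 WT cells, expressed 8 of 8 basal keratinocyte markers but had a Langerhans cell marker and no keratinocyte marker among its leading genes, so Socs3 is given by cluster number as well, and pooled with and without cluster 10.

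Positions are given in GRCm38 from GENCODE vM21. Cish (ENSMUSG00000032578) lies on the plus strand of chromosome 9 from 107296026 to 107302784, and Chrna5 lies on the same chromosome from 54980880 to 55007779, 52.3 megabases away. Socs2 (ENSMUSG00000020027) lies on the minus strand of chromosome 10 from 95385362 to 95417180, and Socs3 (ENSMUSG00000053113) on the minus strand of chromosome 11 from 117966079 to 117970047. Socs7 also lies on chromosome 11, from 97362551 to 97398542, Socs4 on chromosome 14 from 47276931 to 47296102, Socs1 on chromosome 16 from 10782240 to 10785536, and Socs5 on chromosome 17 from 87107679 to 87137839. Counts were made per gene, so they do not separate exons or transcripts.

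STAT proteins bind DNA at a short palindrome, and RefSeq promoter windows (GRCm38.p6, 250 bases before to 50 bases after the gene's start) were searched for it as TTCNNNGAA, which reads alike on both strands. Windows were held for 4 of the 8 genes: Cish, Socs1, Socs3 and Socs4. The RefSeq start of Cish (107296659) and that of Socs3 (117969366) lie 633 and 681 bases inside the GENCODE genes given above, and offsets here count from the RefSeq starts. The Cish window held 2 matches within the first 20 bases from that start, the Socs3 window held 1 match, and the Socs1 and Socs4 windows held none. Of all 32851 windows, 8.30% held at least 1 match and 0.457% held at least 2. The 30 bases around the matches are shown because Cish and Socs3 are 2 of the 3 genes that the results turn on, and capitals mark the matched letters. Cish is shown from base -5 to base 25 of its RefSeq start (chr9:107296654-107296683, plus strand) and Socs3 from base -165 to base -136 (chr11:117969502-117969531, minus strand).
Cish: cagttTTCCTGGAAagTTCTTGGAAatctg
Socs3: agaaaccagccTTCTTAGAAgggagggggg
A match is a description of these letters, and binding was not measured.

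Each member had its own distribution over the skin's cell types. Levels were expressed as CPM, the UMIs of a gene summed over the cells of a type and scaled to a total of 1000000 UMIs over all genes. The classes other than the dermal papilla were named in the same way as fibroblast-like (282 Chrna5-/- cells and 279 WT cells), T and innate lymphoid-like (486 and 430 cells), melanocyte-like (92 and 172 cells) and Langerhans cell-like (61 and 82 cells), and cluster 15, with 8 of 10 T and innate lymphoid markers but led by Igkc, Ccl5, Icos and Il17a, stayed unnamed (173 and 311 cells).

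Socs2 was a mesenchymal and immune transcript and was scarce in keratinocytes. Its CPM was 135 in Chrna5-/- and 38.2 in WT dermal papilla-like cells, 43.6 and 31.0 in fibroblast-like cells and 49.6 and 56.0 in T and innate lymphoid-like cells. Cluster 15 had 51.0 CPM in Chrna5-/- and 72.4 CPM in WT. Keratinocytes stood far below, at 2.61 CPM in Chrna5-/- and 2.75 CPM in WT. In WT the intervals of the dermal papilla-like cells (32.2 to 45.0 CPM) and fibroblast-like cells (23.0 to 40.9 CPM) overlapped, so these neighbours in the order could not be separated, and both lay below cluster 15 (55.9 to 92.3 CPM). In Chrna5-/-, by contrast, the interval of the dermal papilla-like cells (121 to 149 CPM) lay above those of all 6 other classes.

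Cish had another order. Cluster 15 had the highest level in both libraries, 313 CPM in Chrna5-/- and 302 CPM in WT. Keratinocytes followed with 137 CPM in Chrna5-/- and 109 CPM in WT. The Langerhans cell-like cells, on 18 and 50 UMIs, had 95.8 CPM in Chrna5-/- and 93.7 CPM in WT, and could not be separated from keratinocytes in either library. The dermal papilla-like cells had 111 CPM in Chrna5-/-, within the interval of the Langerhans cell-like cells, and 44.6 CPM in WT, below it. Fibroblast-like cells, with 29.5 CPM in Chrna5-/- and 26.0 CPM in WT, and T and innate lymphoid-like cells, with 19.3 and 32.7 CPM, were lower.

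Socs3 was by far most abundant in dermal papilla-like cells, with 3704 CPM in Chrna5-/- and 3184 CPM in WT. Fibroblast-like cells had 1131 CPM in Chrna5-/- and 839 CPM in WT, and keratinocytes 373 and 223 CPM. The T and innate lymphoid-like cells had 204 CPM in Chrna5-/- and 216 CPM in WT, and their interval in WT (190 to 245 CPM) held the level of WT keratinocytes. Cluster 15 was lowest among the classes in both libraries, at 78.7 CPM in Chrna5-/- and 79.1 CPM in WT, although in WT the melanocyte-like cells, at 85.0 CPM, lay within its interval.

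Socs1, the interferon-induced inhibitor that blocks the kinases directly, was highest in T and innate lymphoid-like cells, with 168 CPM in Chrna5-/- and 142 CPM in WT, and low in keratinocytes, with 12.7 and 13.3 CPM. The remaining members, Socs4 to Socs7, are less well characterised inhibitors, and Socs4 and Socs5 are best known for acting on growth factor receptors. They were spread more evenly. Over the dermal papilla-like, fibroblast-like, T and innate lymphoid-like cells and keratinocytes, Socs4 ran from 32.2 to 57.5 CPM in Chrna5-/- and from 26.0 to 46.8 CPM in WT. Over the same classes Socs6 ran from 18.6 to 54.8 CPM in Chrna5-/- and from 21.5 to 53.4 CPM in WT. Socs5 and Socs7 did not pass 28.2 CPM in Chrna5-/- or 25.4 CPM in WT in any of these 4 classes.

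**Figure D1:**
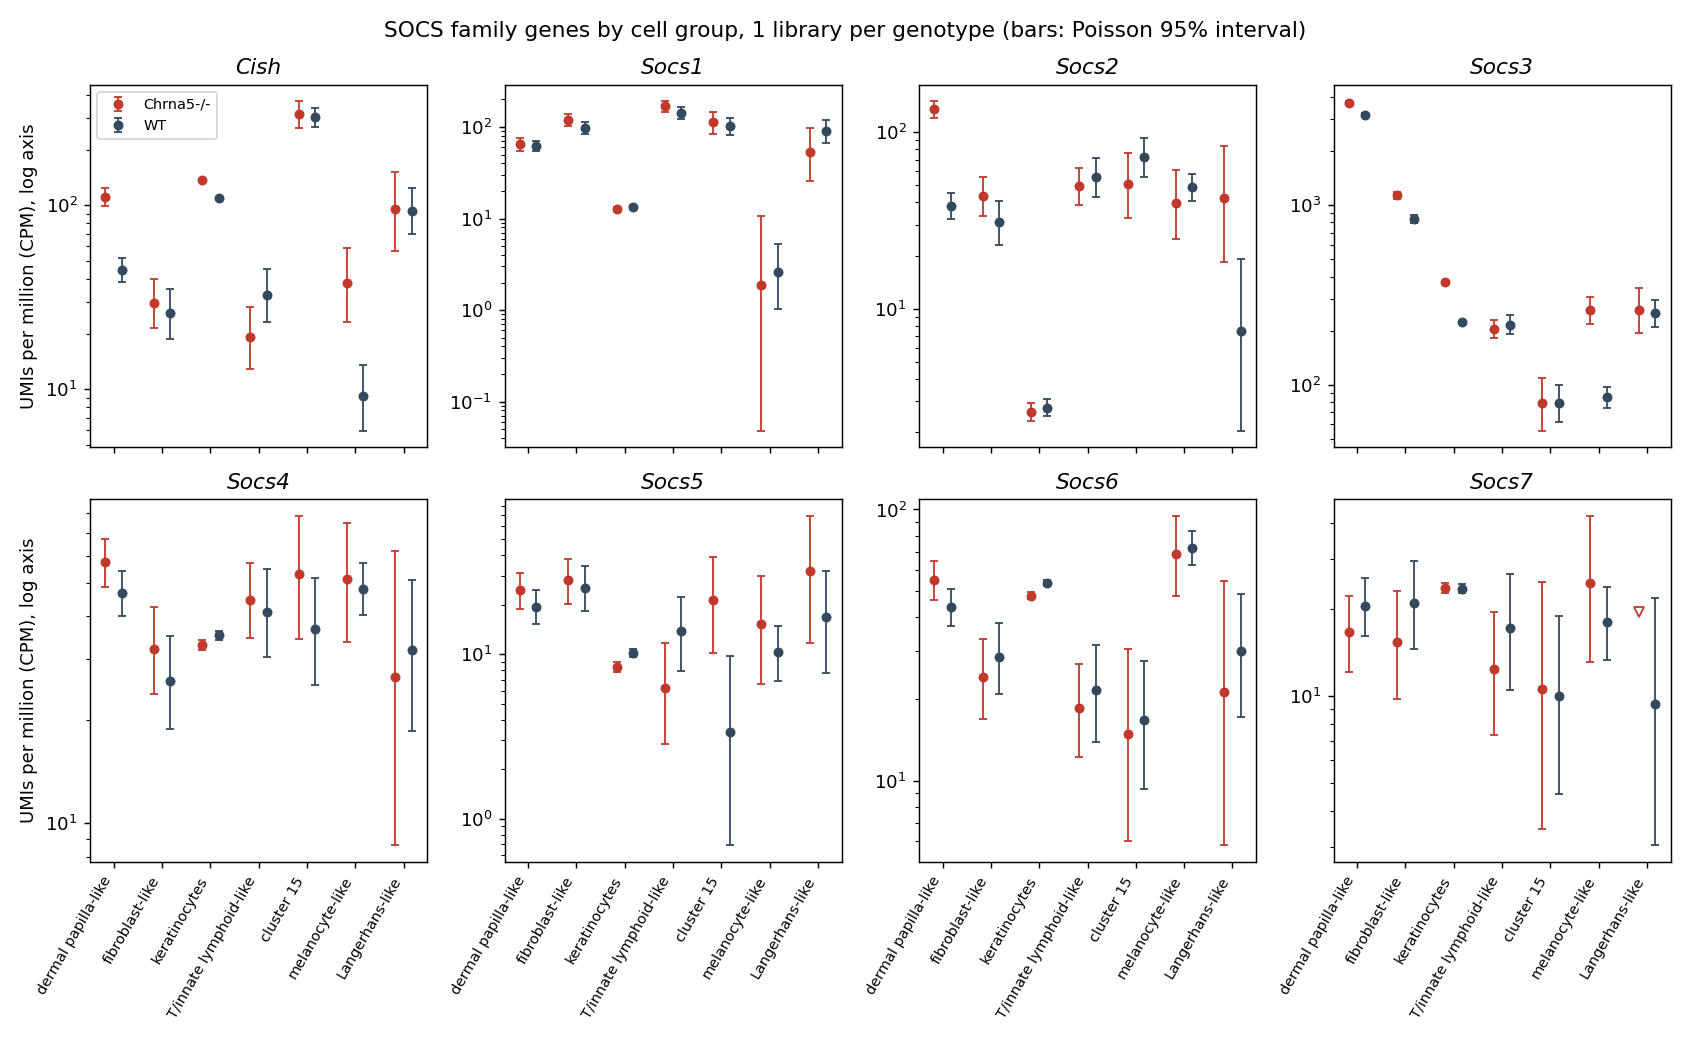
Level in CPM of each SOCS family gene (log axis) by cell group, with Chrna5-/- left of WT in each pair, points for the level of 1 library and bars for the exact Poisson 95% interval; an open triangle is the upper limit where no UMI was found. Socs2 and Cish stand apart between the libraries in dermal papilla-like cells (135 against 38.2 CPM and 111 against 44.6 CPM), Socs3 in keratinocytes (373 against 223 CPM). Some other bars are separate at smaller ratios, such as Socs3 in dermal papilla-like (1.16) and fibroblast-like cells (1.35) and Cish in keratinocytes (1.26). Socs3 and Cish also stand apart in melanocyte-like cells, a small class whose levels are given below as values only.

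In dermal papilla-like cells the pair of STAT5-associated members was higher in Chrna5-/- than in WT, and the other 6 members lay closer to equal. Socs2 gave 356 UMIs in Chrna5-/- and 143 UMIs in WT, and the CPM ratio, Chrna5-/- over WT as for every ratio below, was 3.52 (95% interval 2.89 to 4.31). Cish gave 294 UMIs in Chrna5-/- and 167 UMIs in WT, with a ratio of 2.49 (2.05 to 3.03). Both intervals lay above 2. Among the 9635 genes with at least 50 UMIs over both libraries, Socs2 ranked 7 and Cish ranked 21 from the highest ratio.

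Counted by cell, Socs2 was found in 36.9% of Chrna5-/- dermal papilla-like cells (32.7 to 41.2%, exact Clopper-Pearson interval) and in 15.0% of WT ones (12.2 to 18.2%). Cish was found in 36.3% of Chrna5-/- cells (32.1 to 40.6%) and 21.0% of WT cells (17.8 to 24.5%). The shares of both genes were higher in Chrna5-/- although its cells were shallower, with a median of 5352 UMIs against 6738 in WT. Where each gene was scarce, its share of cells was lower: Socs2 was found in 1.18% of Chrna5-/- and 1.29% of WT cells of suprabasal-like cluster 6 (medians of 16968 and 17373 UMIs), and Cish in 5.14% and 6.98% of T and innate lymphoid-like cells (medians of 2831 and 2631 UMIs).

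When every cell was thinned to 1000 UMIs, 489 Chrna5-/- and 562 WT dermal papilla-like cells remained and 18 and 24 were too shallow. Socs2 was then found in 11.0% of Chrna5-/- cells and 1.07% of WT cells, on 58 and 6 UMIs. Cish was found in 8.38% of Chrna5-/- cells and 4.45% of WT cells, on 45 and 25 UMIs. The thinned shares had the same order as the unthinned ones.

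Most cells in which either gene was found held fewer than 3 UMIs of it. The 1% of cells richest in Socs2 held 10.1% of its UMIs in Chrna5-/- and 18.9% in WT. The cells with 3 or more UMIs of Socs2 made up 7.89% in Chrna5-/- and 2.05% in WT, and those with 3 or more UMIs of Cish 3.94% and 1.19%. No cell held more than 9 UMIs of either gene in Chrna5-/- or more than 7 in WT. Both genes were found together in 82 of 507 Chrna5-/- cells (16.2%) and in 24 of 586 WT cells (4.10%). Within a library, Cish was found in 43.9% of the Chrna5-/- cells with Socs2 and 31.9% of those without it, and in 27.3% and 19.9% of WT cells, which is a description only, since deeper cells show more of every gene.

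**Figure D2:**
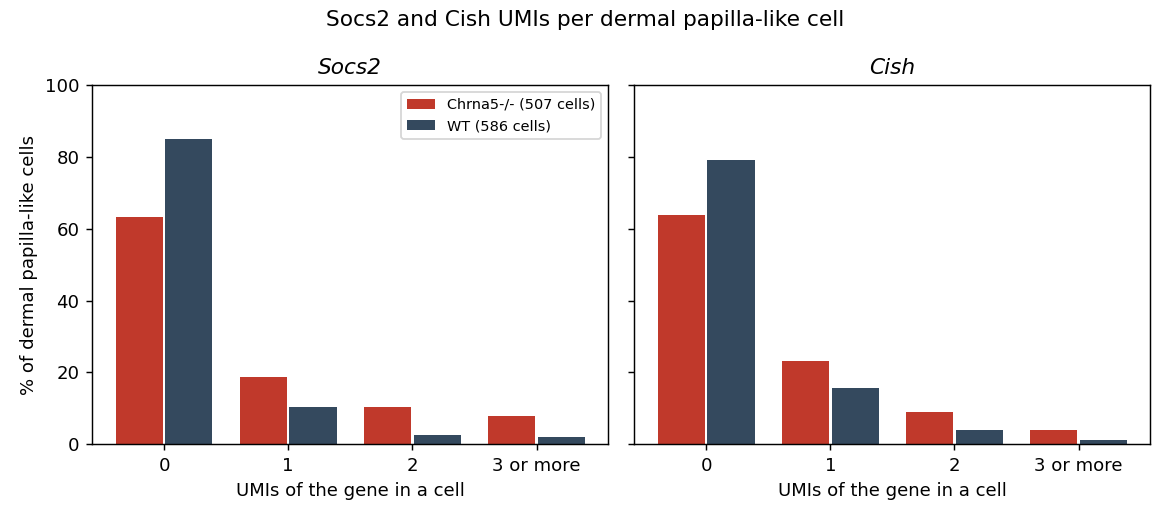
Share of dermal papilla-like cells (%) with 0, 1, 2 or 3 or more UMIs of Socs2 (left) and Cish (right), Chrna5-/- (507 cells) left of WT (586 cells) in each pair. Cells with no Socs2 UMI made up 63.1% in Chrna5-/- and 85.0% in WT, and every bar from 1 UMI up is taller in Chrna5-/- for both genes.

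A finer clustering (resolution 2) divided the dermal papilla-like cells into sub-cluster A, with 223 Chrna5-/- and 163 WT cells, and sub-cluster B, with 284 and 423 cells, and the direction was the same in both. In sub-cluster A, Socs2 had 113 CPM in Chrna5-/- and 45.6 CPM in WT, a ratio of 2.49 (1.82 to 3.45), and in sub-cluster B 156 and 34.7 CPM, a ratio of 4.51 (3.49 to 5.86). Cish had 130 CPM in Chrna5-/- and 66.4 CPM in WT in sub-cluster A, a ratio of 1.96 (1.49 to 2.58), and 92.0 and 34.3 CPM in sub-cluster B, a ratio of 2.68 (2.02 to 3.58). Cish was thus higher in sub-cluster A than in sub-cluster B in each library, and Socs2 was not higher in A than in B in Chrna5-/-.

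The other 6 members had ratios between 0.809 and 1.26 in dermal papilla-like cells. Socs3, on 9794 Chrna5-/- UMIs and 11918 WT UMIs, had a ratio of 1.16 (1.13 to 1.19) and was found in 92.9% and 91.6% of cells. Socs1 had 64.7 CPM in Chrna5-/- and 62.2 CPM in WT, a ratio of 1.04 (0.848 to 1.27). Socs4, Socs5 and Socs6 had ratios of 1.23, 1.26 and 1.25, and Socs7, with 16.6 and 20.6 CPM, a ratio of 0.809 (0.545 to 1.19). The intervals of Socs1, Socs4, Socs5, Socs6 and Socs7 all held 1. In all, 2 of 8 members were at least 1.5-fold higher in Chrna5-/- and none at least 1.5-fold lower, while 4.42% of all measured genes were at least 1.5-fold higher and 4.87% at least 1.5-fold lower (9.29% either way). The median log2 ratio was 0.31 over the members and 0.04 over all measured genes.

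**Figure D3:**
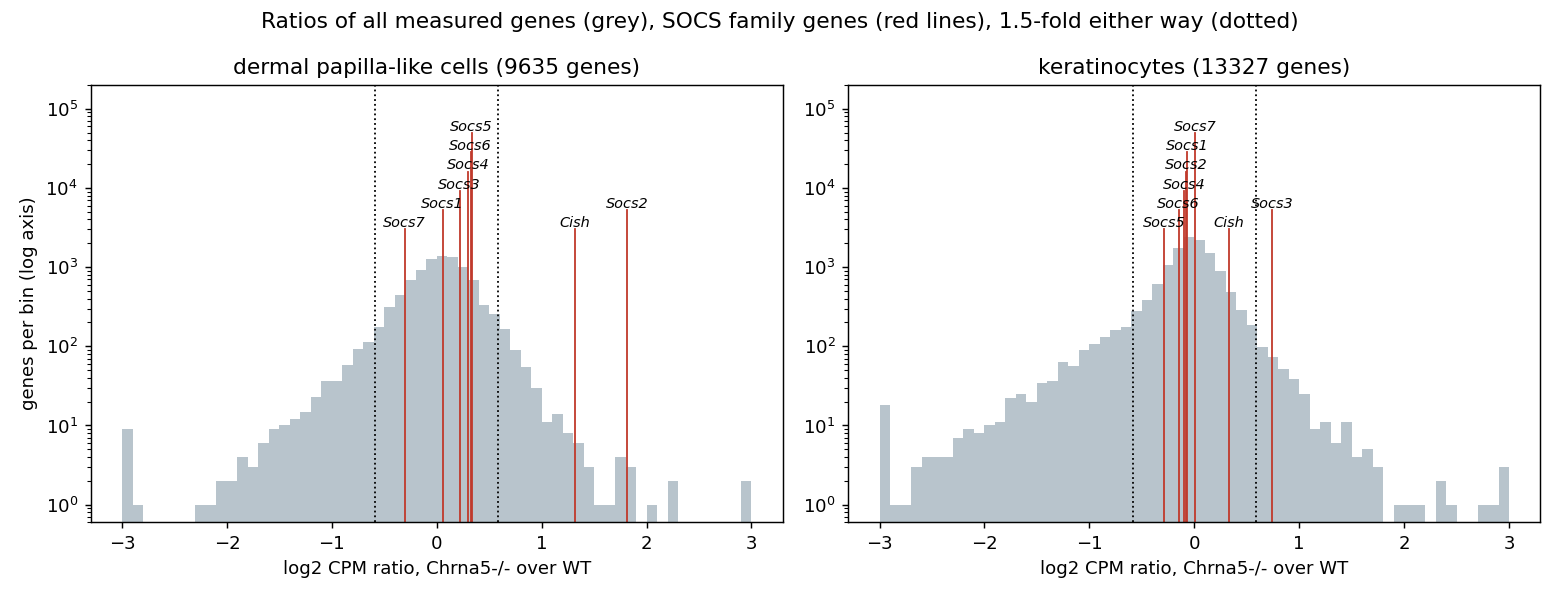
Number of genes per bin of 0.1 (log axis) by log2 CPM ratio, Chrna5-/- over WT, in dermal papilla-like cells (left, 9635 genes) and keratinocytes (right, 13327 genes), with red lines at the SOCS family genes and dotted lines at 1.5-fold either way; the end bins hold every gene beyond them. Socs2 (1.82) and Cish (1.32) stand right of the dotted line on the left, and Socs3 (0.74) on the right.

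Other properties of the cells differed between the libraries as well. The summed level of the 12 dermal papilla markers was 8902 CPM in Chrna5-/- and 11243 CPM in WT. The 17 genes of the dissociation stress list, immediate-early and heat shock genes that tissue digestion induces, summed to 52682 CPM in Chrna5-/- dermal papilla-like cells and 62766 CPM in WT ones, a ratio of 0.839. On that list 5 genes were at least 1.5-fold lower and none higher, where 4.87% of all measured genes were lower and 4.42% higher. Egr1 (2481 and 4850 CPM, ratio 0.512) and Dnajb1 (833 and 1548 CPM, ratio 0.538) led the lower genes, while Nr4a1 and Jun, at 1.09 and 1.08, had the highest ratios. The summed level of the stress list was thus below that of WT where the STAT5-associated pair was above it, and the list's part in the result was not tested. The 37 keratinocyte markers summed to 4725 CPM in Chrna5-/- and 4892 CPM in WT dermal papilla-like cells, against 33844 and 33477 CPM in keratinocytes, with 6 of 37 at 0 in each library. The 4 erythrocyte genes summed to 0.378 CPM in Chrna5-/- and 147 CPM in WT, and 3 of the 4 were at 0 in Chrna5-/-.

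Upstream of the members, few cytokine genes of the dermal papilla-like cells could be measured. Beside this and the next lists in these cells, 4.42% of all measured genes were at least 1.5-fold higher and 4.87% lower. Of 26 cytokine ligand genes only Clcf1 had 50 UMIs, at 9.45 CPM in Chrna5-/- and 10.4 CPM in WT. Of 37 cytokine receptors 16 were measured, and none was at least 1.5-fold higher while 1 was lower, Il10rb, on 15 and 37 UMIs (ratio 0.574, 0.293 to 1.07). The highest receptor ratios were those of Lifr (1.44), the receptor of leukaemia inhibitory factor, and its partner Il6st (1.41), which encodes gp130, and the second lowest was Osmr (0.747). Prlr, the prolactin receptor, was named after its values were seen and had 704 CPM in Chrna5-/- and 542 CPM in WT, a ratio of 1.30 (1.22 to 1.38). Also named afterwards, Ghr, the growth hormone receptor, gave 17 and 27 UMIs, too few to be counted as measured. Lepr, the leptin receptor, had 118 CPM in Chrna5-/- and 133 CPM in WT, a ratio of 0.887 (0.767 to 1.02). The part of these receptors in the Socs2 and Cish result was not tested.

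Among 9 measured Janus kinases and STATs, 1 was higher, Tyk2, on 30 and 26 UMIs (ratio 1.63, 0.934 to 2.87). Stat6 was at the low end, with a ratio of 0.853, and none was at least 1.5-fold lower. Stat5a, also the second highest of the list, had 149 CPM in Chrna5-/- and 152 CPM in WT, a ratio of 0.981 (0.861 to 1.12). Stat5b, named here as the other STAT5 gene, had 85.1 and 88.4 CPM, a ratio of 0.962 (0.809 to 1.14). Both intervals held 1, and phosphorylation of the STAT proteins was not measured. The 6 partners of the SOCS box, which build the ubiquitin ligase, had ratios from 1.10 (Cul5 and Cul2) to 1.26 (Rbx1), none past 1.5-fold.

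Of 10 measured inhibitors of the pathway outside the SOCS family, 1 was higher. Ptpn1, a phosphatase that acts on Janus kinases and the insulin receptor, had 255 CPM in Chrna5-/- and 112 CPM in WT, a ratio of 2.27 (2.01 to 2.57). Its relative Ptpn2 followed with 66.2 and 46.0 CPM, a ratio of 1.44 (1.16 to 1.79). The lowest ratios were those of Sh2b3 (0.765) and Cbl (0.779).

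The STAT target lists were mixed in dermal papilla-like cells. They hold gene names without the direction in which the STAT acts on each gene, so no STAT activity is read from them. Of 7 measured STAT5 targets, Bcl6, a transcriptional repressor, was higher, with 151 CPM in Chrna5-/- and 70.0 CPM in WT (ratio 2.15, 1.84 to 2.52), and Ccnd2, a cell cycle cyclin, was lower, with 25.7 and 46.2 CPM (ratio 0.556, 0.414 to 0.741). The next on either side, Myc (1.22) and Bcl2l1 (0.807), were within 1.5-fold. The list's median log2 ratio was 0.21. Of 11 measured STAT3 targets 2 were lower and none higher: Mcl1, an anti-apoptotic gene, with 188 CPM in Chrna5-/- and 317 CPM in WT (0.592), and Saa3, an acute-phase gene, with 1 UMI in Chrna5-/- and 56 UMIs in WT, a ratio of 0.0253 (0.000629 to 0.147). The highest STAT3 targets, Bcl3 (1.22) and Pim1 (1.15), stayed within 1.5-fold.

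In keratinocytes it was Socs3 that was higher in Chrna5-/-, while Socs2 and Cish lay within 1.5-fold. Socs3 gave 40228 UMIs in Chrna5-/- and 26069 UMIs in WT, a ratio of 1.67 (1.65 to 1.70), and ranked 212 from the highest among 13327 measured genes. Without cluster 10 the ratio was 1.62. It was found in 76.3% of Chrna5-/- keratinocytes (75.3 to 77.2%) and 63.1% of WT ones (62.0 to 64.1%). Thinned to 1000 UMIs, the shares were 28.5% of 7126 Chrna5-/- cells and 18.5% of 7673 WT cells. A cell in cluster 15, where Socs3 was scarcest, showed it in 16.8% and 15.1% of cases unthinned, at medians of 2486 and 2657 UMIs, and in 3.76% and 5.18% after thinning.

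The difference was present in most kinds of keratinocyte. Socs3 was higher in Chrna5-/- in 12 of 13 clusters, with intervals above 1 in 11 of them, and at least 1.5-fold higher in 8. In these clusters 2.71% to 10.2% of all measured genes were at least 1.5-fold higher. The median Socs3 ratio over the 13 clusters was 1.53. Clusters 4, 7, 9 and 10 did not reach 1.5-fold, and cluster 9 was the largest of all, with 1157 Chrna5-/- and 1205 WT cells. The largest ratio was in cluster 3, which was led by early differentiation genes such as Dsg1a, Krt1 and Ovol1, with 447 CPM in Chrna5-/- and 228 CPM in WT (1.96, 1.85 to 2.07). Cluster 2, led by genes that included the stress genes Atf3 and Dnajb1, had the highest levels, 849 CPM in Chrna5-/- and 478 CPM in WT (1.78), and it held 926 Chrna5-/- and 552 WT cells. In cluster 6, the suprabasal-like cells led by Krt10 and Krt1, the levels were 246 and 162 CPM (1.52), and in cluster 1, upper hair follicle-like cells led by Krt79, 326 and 188 CPM (1.73). Mitotic cluster 5, led by Cenpf and Ube2c, had 354 and 205 CPM (1.72).

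Cluster 17 went the other way. It was led by hair follicle genes that included Lhx2, Sfrp1 and Lgr5, and held 211 Chrna5-/- and 614 WT cells. Socs3 had 171 CPM in Chrna5-/- and 410 CPM in WT there, a ratio of 0.417 (0.372 to 0.467), and was found in 57.8% and 67.1% of cells. Socs1 was lower too, on 16 and 73 UMIs (0.545, 0.296 to 0.945), and these were 2 of 8 members past 1.5-fold, against 16.5% of all measured genes in that cluster, 6.3% being lower. Cish, at 49.5 and 56.4 CPM, had a ratio of 0.878 with an interval that held 1. With all clusters weighted alike, whatever their size or their share of each library, the Socs3 ratio over keratinocytes was 1.47. The part of any single cluster in this value was not tested.

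**Figure D4:**
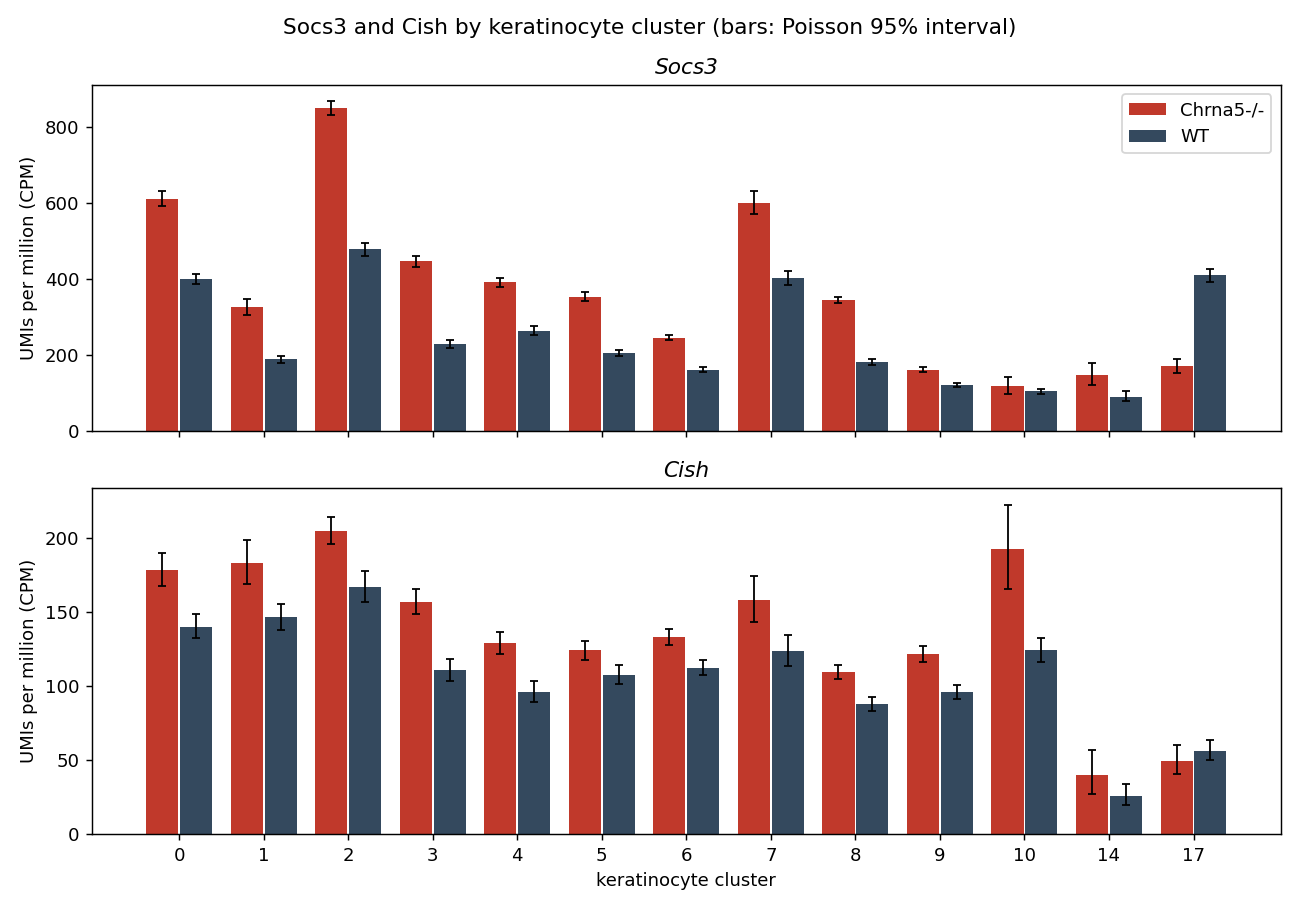
Level in CPM of Socs3 (top) and Cish (bottom) in the 13 keratinocyte clusters, Chrna5-/- left of WT, with bars for the level of 1 library and whiskers for the exact Poisson 95% interval. Chrna5-/- is taller in every cluster but 17 for both genes, where Socs3 has 171 CPM in Chrna5-/- and 410 CPM in WT.

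Stress genes went with Socs3 in keratinocytes. The dissociation stress list summed to 21038 CPM in Chrna5-/- and 17105 CPM in WT, a ratio of 1.23, with Dnajb1 at least 1.5-fold higher (748 and 481 CPM, 1.56), Fos next at 1.44, and Btg2 (0.764) and Nr4a1 (0.901) at the low end. In cluster 17, where Socs3 was lower, the list was lower as well, at 28915 CPM in Chrna5-/- and 38014 CPM in WT (0.761). In cluster 2, which had the highest Socs3 levels, it stood at 36136 and 28522 CPM (1.27). Socs3 and the stress list were on the same side of 1 in each of the 13 clusters, and the part of the stress genes in the Socs3 result was not tested. In dermal papilla-like cells, by contrast, Socs3 was at 1.16 with the stress list at 0.839. Fibroblast-like cells had Socs3 at 1.35 and the list at 0.889. In T and innate lymphoid-like cells Socs3 was at 0.943 (0.794 to 1.12) and the list at 1.30. Cluster 15 and the smaller classes are left out of this comparison.

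Cish was 1.26-fold higher in keratinocytes (137 and 109 CPM, interval 1.23 to 1.29), with a ratio above 1 in 12 of 13 clusters and between 0.878 and 1.55 in all of them. Socs2 had a ratio of 0.949 (0.806 to 1.12) on 282 and 322 UMIs, but its direction turned with the processing, to 1.44 after thinning and 1.46 with clusters weighted alike. Among the remaining members Socs1 had a ratio of 0.954, Socs4 of 0.937, Socs6 of 0.901, Socs7 of 1.01, and Socs5, the lowest, of 0.821 (0.752 to 0.896). In all, 1 of 8 members was at least 1.5-fold higher and none at least 1.5-fold lower, where 2.75% of all measured genes were higher and 7.83% lower (10.6% either way). The median log2 ratio was -0.07 over the members and -0.03 over all measured genes. Over the 13 clusters the ratio of Socs1 ran from 0.267 to 1.98, that of Socs5 from 0.733 to 1.80 and that of Socs7 from 0.749 to 1.63. In the unevenly filled cluster 10, 4 of 7 measured members passed 1.5-fold, where 18.9% of its measured genes did. Socs1 was lower there and Socs5, Socs7 and Cish were higher. By cluster, Socs2 was higher in Chrna5-/- in 10 of 13 clusters with a median ratio of 1.22, on few UMIs each, and its interval lay above 1 in 1 of them and below 1 in 0. That one was the hair matrix-like cluster 14, with 21 UMIs in 127 Chrna5-/- cells and 18 UMIs in 263 WT cells (27.1 and 8.66 CPM, ratio 3.13, 1.59 to 6.23), too few UMIs to be counted as measured, where 6.63% of the measured genes of that cluster were at least 1.5-fold higher.

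The pathway around Socs3 in keratinocytes is set against all measured genes, among which lower ones also outnumbered higher ones (7.83% and 2.75%). Its values pool unevenly filled clusters, such as cluster 10 with 86 Chrna5-/- and 621 WT cells. The part of that filling in them was not tested. Of 12 measured cytokine ligands 3 were lower and none higher. Lif, leukaemia inhibitory factor, had the lowest ratio, on 39 UMIs in Chrna5-/- and 220 UMIs in WT (ratio 0.192, 0.133 to 0.271), and Csf2 was next with 48 and 91 UMIs (0.571), while Il2 (1.13) and Il11 (1.11) had the highest ratios. Of 27 measured receptors 1 was higher, Il20ra, a subunit of the interleukin 20 receptor, with 19.6 CPM in Chrna5-/- and 12.1 CPM in WT (1.63, 1.52 to 1.74), and Ifngr1 followed at 1.26. Of the 5 receptors that were lower, Il2ra (0.478) and Cntfr (0.497) were lowest. None of 10 kinases and STATs passed 1.5-fold, with Stat5a (0.732) at the low end and Tyk2 (1.04) and Jak1 (1.14) at the high end, and the 6 SOCS box partners ran from Cul2 (0.980) and Elob (1.03) to Rbx1 (1.06) and Eloc (1.14).

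Among 13 inhibitors outside the family, only Usp18, an interferon-induced brake on interferon receptors, passed the threshold, with 2.11 CPM in Chrna5-/- and 4.40 CPM in WT (0.480, 0.409 to 0.563). Sh2b3 (0.851), Ptpn6 (1.08) and Cblb (1.16) lay within it. Of 13 measured STAT3 targets none was higher, Junb (1.23) and Zfp36 (1.21) coming first, both of which the stress list also holds, and 2 were lower, Timp1, on 19 and 93 UMIs (0.221), and Lcn2, on 51 and 191 UMIs (0.289). Of 8 STAT5 targets Myc was higher, with 161 and 99.2 CPM (1.62, 1.58 to 1.66), Bcl6 was at 1.30, and Il2ra and the cyclin Ccnd1 (70.4 and 107 CPM, 0.658) were lower.

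The other classes held fewer UMIs. In fibroblast-like cells 0 of 8 members passed 1.5-fold, where 15.2% of all measured genes did. Socs3 was 1.35-fold higher there (1.25 to 1.45), Socs2 had a ratio of 1.41 (0.958 to 2.08), and Socs7 the lowest, 0.732 (0.412 to 1.28). The fibroblast-like clusters were unevenly filled, with 262 Chrna5-/- and 156 WT cells in cluster 13, where Socs2 had 46.9 and 26.3 CPM (1.78, 1.08 to 3.04), and 20 and 123 cells in cluster 19, where it gave 2 and 28 UMIs.

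In T and innate lymphoid-like cells 6 of 8 members reached 50 UMIs, and 1 of them passed 1.5-fold, where 10.3% of all measured genes did and 6.42% were at least 1.5-fold lower. This was Cish, on 28 UMIs in Chrna5-/- and 38 UMIs in WT, with a ratio of 0.589 (0.348 to 0.985). Its share of cells, 5.14% in Chrna5-/- and 6.98% in WT, had overlapping intervals (3.36 to 7.50% and 4.76 to 9.81%). The keratinocyte markers, where Cish was higher than in these cells, summed to 1889 CPM in Chrna5-/- and 2719 CPM in WT T and innate lymphoid-like cells, and their part in the result was not tested. The dissociation stress list had a ratio of 1.30 there, with 3 of 17 genes at least 1.5-fold higher, where 3.87% of all measured genes were. Socs1, at 168 CPM in Chrna5-/- and 142 CPM in WT, had a ratio of 1.18 (0.966 to 1.45). Cluster 15, the unnamed lymphoid group with the highest Cish level, had a Cish ratio of 1.04 (0.841 to 1.27), and none of its 5 measured members passed 1.5-fold, where 18.8% of its measured genes did.

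Melanocyte-like and Langerhans cell-like cells had fewer than 100 cells in a library and are given as values only. In melanocyte-like cells Socs3 gave 137 UMIs in Chrna5-/- and 231 UMIs in WT (260 and 85.0 CPM), and Cish 20 and 25 UMIs (38.0 and 9.20 CPM). The Chrna5-/- cells of this class were shallower, with a median of 2877.5 UMIs against 5979.5 in WT, and after thinning Socs3 was found in 14.5% and 14.7% of cells, so no order is read from these levels. In Langerhans cell-like cells Socs3 had 261 CPM in Chrna5-/- and 251 CPM in WT, and Socs2 gave 8 and 4 UMIs.

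Genes with the most similar distribution were sought over 8 cell groups in 2 libraries, 16 points in all, among 9880 genes that reached 20 CPM in at least 1 point. The groups were the keratinocytes as a whole, their basal, suprabasal, upper hair follicle and hair matrix parts, and the lymphoid cluster 12, fibroblast and dermal papilla classes. The parts are also counted in the whole, so most points are overlapping keratinocyte sums. Cluster 15, where Cish was highest, was left out, as were melanocyte-like and Langerhans cell-like cells. The measure was the Pearson correlation of log2(CPM + 1). Points of one library also share its depth and free RNA, so the values are a description. The genes nearest to Socs2 were Fndc3a (0.977), Gigyf1 (0.972), Fndc4 (0.972), Eid2 (0.970) and Spsb1 (0.970). The genes nearest to Cish were Kcmf1 (0.928), Bicdl1 (0.923), the family member Socs6 (0.921), Fam241b (0.919) and Pgap2 (0.917). The genes nearest to Socs3 were Wasf3 (0.944), Pou6f1 (0.944), Gm1673 (0.942), Pabpc4l (0.942) and Clec14a (0.942).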

How the data were processed

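The deposited matrices hold raw UMI counts per gene and barcode, whole numbers that were not normalized, per the file headers. The submitters' processing notes list Cell Ranger 3.0.2, Seurat 3.0 and mm10, with no role or order, and the headers name software version 3.1.0. What filtering preceded deposit was not stated.

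Cells were kept with at least 500 UMIs, 300 genes and at most 20% mitochondrial UMIs. Doublets were scored with Scrublet in scanpy 1.11.5. Its own threshold marked 1.56% of Chrna5-/- and 0.0197% of WT cells, so a common score of 0.25 was set after seeing the data and removed 467 (5.02%) and 494 cells (4.86%). Both libraries were clustered together on 2000 variable genes, 30 components and 15 neighbours (Leiden, igraph 0.11.9, resolution 1) into 20 clusters, which were named from marker lists where at least 3 markers were found in 25% of cells, unless their 10 leading genes held more markers of another class than of their own, or their cells were shallow and the leading genes held none of their own. This left clusters 10 and 15 unnamed, and cluster 10 was then counted among the keratinocytes. The members, pathway lists and markers were chosen with earlier results of these data known.

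UMIs were summed per class and library and scaled to a total of 1000000 (CPM). Ratios carry exact conditional binomial 95% intervals, levels exact Poisson and shares exact Clopper-Pearson ones (scipy 1.17.1). A count of 0 was set to a floor of 3 counts per class and library, and no ratio was given where that floor set no bound. Measured means at least 50 UMIs over both libraries, and higher or lower a ratio of at least 1.5 either way. The ratio and interval code was tested on simulated counts. Named genes are the members, the 2 highest and 2 lowest measured ratios of each list in dermal papilla-like cells and keratinocytes, and the 5 genes nearest to Socs2, Cish and Socs3. Some genes this rule names are not reported here. Alternatives are described at the end.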

Additional observations from a re-analysis of the deposited data

Results flagged for a closer look

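Socs3 in keratinocyte cluster 17 had a ratio of 0.417 (171 CPM in Chrna5-/- and 410 CPM in WT), whereas it was above 1 in the other 12 keratinocyte clusters, and this difference between clusters was not tested. The cluster held 2.39% of Chrna5-/- cells and 6.35% of WT cells.

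Cish in T and innate lymphoid-like cells had a ratio of 0.589 on 28 and 38 UMIs, whereas it was 2.49 in dermal papilla-like cells and 1.26 in keratinocytes. This difference between cell types was not tested either.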

How the results depend on the processing

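No paired analysis was possible because each genotype had 1 library. All 15 alternative values of Socs2 in dermal papilla-like cells lay above 1, between 2.49 and 11.1. Those outside its interval were 11.1 after thinning (58 and 6 UMIs), 2.70 with the planned cell-by-cell marker gate, and 2.49 and 4.51 in sub-clusters A and B. That gate left 21 Chrna5-/- and 8 WT cells, with 7 and 1 UMIs of Socs2, and it gave no ratio for Cish (3 and 0 UMIs) nor for Socs5 and Socs7, in fibroblast-like cells too for these last. A looser marker gate, added after seeing the data, kept 468 and 531 cells and gave 3.75 for Socs2 and 2.08 for Cish. Cish moved to 1.96 in sub-cluster A and to 3.15 with 15% free RNA subtracted. The sub-clusters, this free RNA share and the omission of cluster 10 were also added after seeing the data. Members past 1.5-fold in dermal papilla-like cells numbered 4 after thinning and 0 with the planned gate, where too few UMIs were left.

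Socs3 in keratinocytes stayed above 1 in 15 alternatives. It was 1.47 with clusters weighted alike, 1.62 without cluster 10, 1.70 with the looser gate, 1.71 with TMM or median-of-ratios factors, without unevenly filled clusters or with the planned gate, 1.72 as a mean over cells, and 1.73 with 15% free RNA subtracted. The count of keratinocyte members past the threshold was 0 at 2-fold and 0 with clusters weighted alike. Of 395 alternative values of the other members, 363 stayed within the interval of the reported ratio and 34 lay on the other side of 1 from it. Of these 34, only 1 belonged to a ratio past 1.5-fold, Socs5 in T and innate lymphoid-like cells, on 9 and 16 UMIs, which was 1.07 with the planned gate. The causes of these shifts were not tested.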
